A study of Homo sapiens with 18 samples.

Results

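The transcripts of 44 proteins of the large (60S) ribosomal subunit were followed in 18 polyadenylated RNAseq libraries. Members were the rows of the deposited expression tables whose gene symbol was on a list of 60S protein genes, and all 44 were found among 15358 genes in the MCF10A table and 15257 genes in the RPE-1 table. MCF10A is a near-normal human breast epithelial cell line, and hTERT RPE-1 is a human retinal pigment epithelial line immortalised with telomerase. Each line was transfected for 72 h with 30 nM of a non-targeting siRNA (siNT), of an hsa-miR-28-5p mimic or of an hsa-miR-708-5p mimic (miR-28 and miR-708 below), members of the MIR-28 family of microRNAs. All libraries, controls included, therefore carried a transfected small RNA, and no untransfected cells were measured. Each of the 6 groups held 3 biological replicates, numbered 7, 8 and 9 in MCF10A and 1, 2 and 3 in RPE-1. The mimics act from outside at a fixed dose, and the level of either microRNA in the cells was not measured in these libraries. The study asked whether these microRNAs lower ribosome production, and the comparison here was each mimic against siNT within a line.

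The large subunit joins amino acids into protein, and its proteins are made in the cytoplasm, imported into the nucleus and assembled on rRNA in the nucleolus. RPL5 and RPL11 bind the 5S rRNA before they enter the subunit. When assembly fails this 5S particle can bind and inhibit MDM2, a ubiquitin ligase. Most ribosomal protein mRNAs begin with a 5′ terminal oligopyrimidine (TOP) tract, a C followed by further pyrimidines, through which growth signals set their translation as a group, and LARP1 and PABPC1 bind such mRNAs and affect their stability.

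The start of the mRNA and the matches to the seed of the mimic are the sequences on which this group of genes is usually compared, and a few are shown. In the RefSeq promoter entries for GRCh38.p14, 27 of the 37 members with an entry (73.0%) started with a C followed by at least 4 pyrimidines, against 5.14% of the 27305 genes with an entry. The windows of 30 bases hold 15 bases before and 15 from the annotated start on the gene's strand, and capitals mark the pyrimidine run. RPL3 is shown as a member that does not meet this rule, although its annotated start is a C followed by a shorter pyrimidine run.
RPL11, chr1:23691791-23691820 (+): cggaagctccgctttCTCTTCCTgctctcc
RPL12, chr9:127451392-127451421 (−): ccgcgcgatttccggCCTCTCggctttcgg
RPL36, chr19:5690280-5690309 (+): ccgcgcggcgccagcCCTTCCgccacggcc
RPL37A, chr2:216498829-216498858 (+): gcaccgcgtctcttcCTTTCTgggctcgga
RPLP0, chr12:120201097-120201126 (−): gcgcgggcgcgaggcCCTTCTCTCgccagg
RPL3, chr22:39319609-39319638 (−): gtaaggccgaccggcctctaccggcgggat

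The mature hsa-miR-708-5p lies at chr11:79402077-79402099 on the minus strand (RefSeq, GRCh38.p14), and the capitals mark its seed, bases 2 to 8. The mRNA sequence that pairs with bases 2 to 7 is GCTCCT, called the 6mer below, and it becomes a 7mer as AGCTCCT or GCTCCTA. Only the sense strand of the canonical transcript was searched, so every 7mer also counts as a 6mer. The 6mer occurred in the 3′ UTR of 9 members (20.5%), against 32.8% of 19550 genes, whose 3′ UTRs had a mean of 1768 bases, against 975 bases for the members (median 240.5). A 7mer occurred in 5 members, against 17.1% of genes, and the 6mer occurred in the coding sequence of 5 members (11.4%), against 45.2% of genes. Matches of a few members described in full are shown with the 6mer in capitals.
hsa-miR-708-5p: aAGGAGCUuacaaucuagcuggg
RPL11, 3′ UTR, chr1:23696690-23696719 (+): gcagggtgcagtGCTCCTgtgttccaggag
RPL37A, 3′ UTR, a 7mer, chr2:216503849-216503878 (+): attagatttctgGCTCCTatctgtgatttt
RPLP0, coding sequence in exon 8, chr12:120196848-120196877 (−): gccaccacagctGCTCCTgctgctgctgca
RPL23A, coding sequence in exon 4, chr17:28723593-28723622 (+): tatgttcgactgGCTCCTgattacgatgct
A match is a description of these letters and not a shown binding site.

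The deposited values are estimated read counts scaled within each line, written below as values, and the tables of the 2 lines were scaled separately, so the lines were compared only through their log2 fold changes. Depth, read from the step between low values, was 19.4 to 31.7 M reads on genes in MCF10A and 23.8 to 40.3 M in RPE-1. The lowest value of any member was 5296 in MCF10A and 1910 in RPE-1 (about 3942 and 2006 reads), so counting error was small beside the spread of the replicates. All 6 breast epithelial markers were listed in MCF10A, with summed values of 149994 to 167072 in siNT, 96316 to 105601 with miR-28 and 72416 to 94795 with miR-708, where 3 and 4 of the 6 were called lower (medians −0.51 and −0.81). The part of this in the members' values was not tested. In RPE-1 the defining marker RPE65 was not listed. The other 5 retinal pigment epithelial markers summed to 1960 to 2793 in siNT, 1336 to 1361 with miR-28 and 1463 to 1569 with miR-708. With miR-28 2 of these 5 were called lower and 2 higher, and with miR-708 1 lower and 1 higher. In MCF10A siNT 5 markers of this list, RPE65 among them, summed to 869 to 1191. The 4 mesenchymal markers summed to 149542 to 175702 in RPE-1 siNT, with COL1A2 below 10. Of 3 blood markers, MCF10A listed only CD14, at 245.6 to 482.4 in siNT and 188.3 to 207.3 with miR-28, where it was called lower (−0.87), and RPE-1 listed only PTPRC, at 5.9 to 9.1 in siNT. Replicate 1 of miR-28 in RPE-1 stood apart by its rRNA rows, 15.1% of all values against 4.23% to 7.20% in the other RPE-1 libraries.

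Transcripts of the large subunit were lower with both mimics in both lines. The log2 fold change of all 44 was below 0 in each of the 4 comparisons with siNT, and no member was called higher. Their median log2 fold change was −0.38 with miR-28 and −0.56 with miR-708 in MCF10A, and −0.75 and −1.17 in RPE-1, which are median folds of 1.30, 1.47, 1.68 and 2.25. The median over all tested genes lay between −0.00 and 0.01 in these comparisons. In bulk samples, fewer cells of a kind and less RNA per cell cannot be told apart, and the scaling within each line leaves no measure of total RNA.

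A gene was called where limma's moderated test on log2(value + 1) gave a Benjamini-Hochberg adjusted p below 0.05 over all tested genes. With miR-28 20 members fell in MCF10A, where 12% of all genes were called lower, and 43 fell in RPE-1, where 23.5% were. With miR-708 37 fell in MCF10A (17.3% of all genes called lower) and 44 in RPE-1 (31.2%). At an unadjusted p below 0.05 the counts were 32, 40, 44 and 44 in the order MCF10A miR-28, MCF10A miR-708, RPE-1 miR-28 and RPE-1 miR-708, which is the order used for each set of 4 values below. At the same threshold 18.9%, 22.6%, 26.9% and 32.9% of all genes were lower. All 3 mimic libraries lay below all 3 siNT libraries for 27, 43, 44 and 44 members, against 22.1%, 23.9%, 27.5% and 34.9% of all genes. With library size scaling, which put the median of all genes at 0.12, 0.14, 0.09 and 0.32, there were 13, 26, 43 and 43 members called lower. With the deposited scaling, the count of 20 was 9 without siNT replicate 8, 10 without siNT replicate 9 and 13 without miR-28 replicate 8 of MCF10A. Over all genes 2113, 2099 and 1949 were called in these fits, lower or higher, against 3347 in the full fit.

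**Figure D1:**
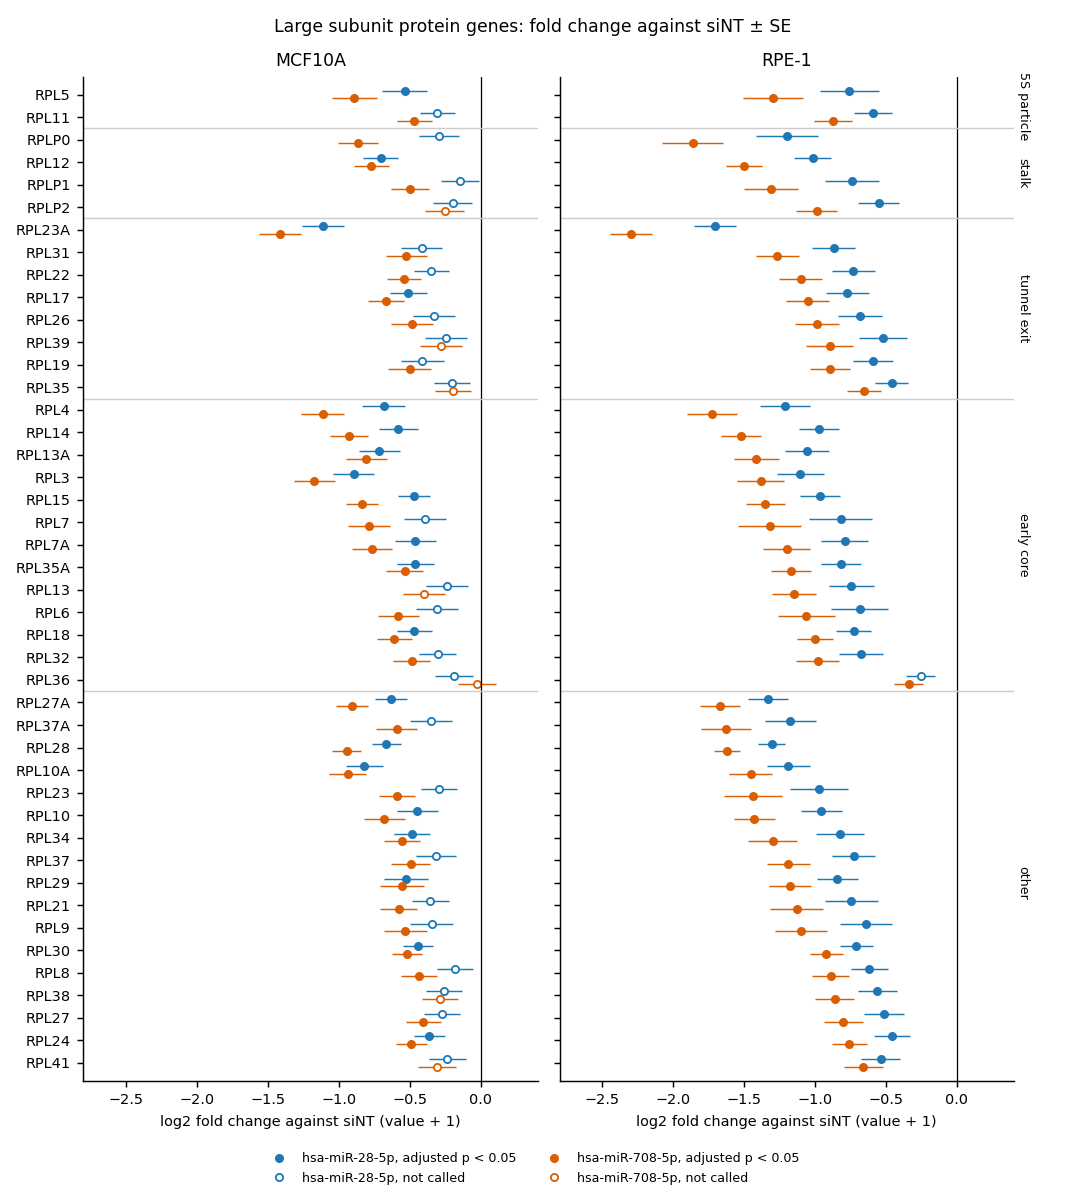
Log2 fold change of the 44 large subunit genes (mimic against siNT, horizontal axis, with bars of 1 SE) by role in the 4 comparisons, with filled points for genes called at an adjusted p below 0.05 and open points for the others. All 44 points of each comparison lie below 0, with 20, 37, 43 and 44 called, and RPL23A is at the lower end in each.

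As a share of all values, the 44 genes held 4.01%, 4.69% and 4.70% in the MCF10A siNT libraries, 3.03%, 3.62% and 3.90% with miR-28 and 3.14%, 3.01% and 3.06% with miR-708. In RPE-1 they held 1.89%, 1.67% and 1.84% in siNT, 1.26%, 0.85% and 1.06% with miR-28 and 1.09%, 0.86% and 0.89% with miR-708. No mimic library reached the lowest siNT library of its line. The mean share was 78.8%, 68.8%, 58.8% and 52.5% of that in siNT. Each of the 4 differences gave p = 0.1 in a two-sided exact permutation test (adjusted p = 0.1), the smallest that 3 against 3 libraries allow.

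**Figure D2:**
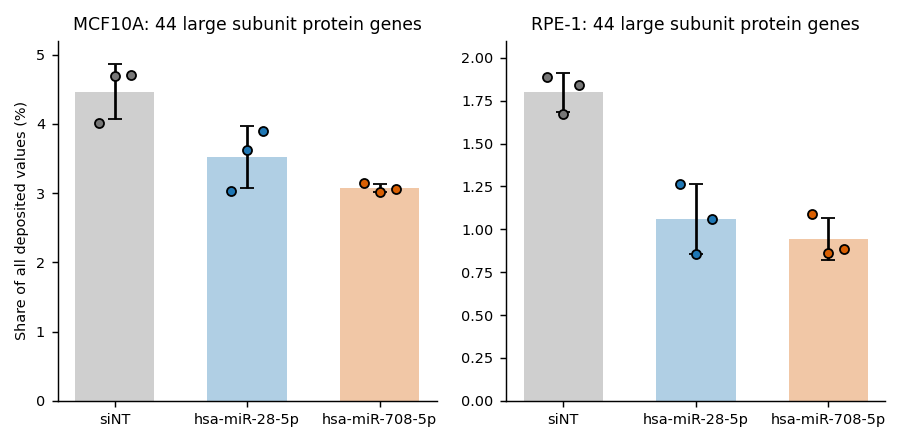
Share of all deposited values held by the 44 large subunit genes, in percent, with a point for each library, bars from 0 for the group mean and whiskers for the SD (n = 3). Each line has an axis of its own. The mimic libraries of each line lie below its siNT libraries, from 3.01% to 3.90% against 4.01% to 4.70% in MCF10A and from 0.85% to 1.26% against 1.67% to 1.89% in RPE-1.

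The replicates of a group did not fall equally far. Relative to the siNT mean, the members' median in the MCF10A miR-28 libraries was −0.58, −0.33 and −0.21 on the log2 scale, and with miR-708 it was −0.54, −0.61 and −0.55. In RPE-1 it was −0.43, −1.10 and −0.82 with miR-28 and −0.94, −1.31 and −1.25 with miR-708, so that replicate 1 of miR-28 was the least changed. The same libraries differed in other RNAs. The summed value of the interferon-stimulated genes, which cells switch on upon sensing double-stranded RNA or interferon, was 10702 to 12820 in RPE-1 siNT, and 49478, 411224 and 274597 in replicates 1, 2 and 3 of miR-28. It was 307758 to 370867 with miR-708 in RPE-1 and 90559 to 146213 in MCF10A. In MCF10A with miR-28 the sum was 12733 to 14233, against 10518 to 11795 in siNT. Of the 13 interferon-stimulated genes 5 were called higher and 1 lower there, and 20 of the 44 members were called lower. The part of the interferon-stimulated genes or of the rRNA share in the fall of the members was not tested.

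Both proteins of the 5S particle were below siNT in every comparison, and the log2 fold change of RPL5 was the lower of the pair in each, a difference that was not tested. RPL5 (chr1:92832013-92841924, plus strand) had values of 38983, 43479.5 and 44232 in the MCF10A siNT libraries, 23369, 33076 and 31683 with miR-28, and 26255, 20226 and 22051 with miR-708. Its RPE-1 values were 19507, 18091 and 22043 in siNT, 16492, 8896 and 10968 with miR-28, and 9909, 6644 and 8007 with miR-708. In both lines all mimic libraries lay below all siNT libraries, while the mimics overlapped with each other. The log2 fold changes of RPL5 were −0.54, −0.89, −0.76 and −1.29 (SE 0.16, 0.16, 0.21 and 0.21, adjusted p = 0.0323, 0.0017, 0.0132 and 0.000349 by limma), which are folds of 1.45, 1.86, 1.69 and 2.45. The first of these calls rested on single libraries: its adjusted p ran from 0.0189 to 0.0992 over the alternatives and passed 0.05 with library size scaling and without any of the 3 siNT libraries or miR-28 replicates 7 or 9.

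RPL11 (chr1:23691742-23696835, plus strand) had values of 22230.4, 26694 and 24631 in MCF10A siNT, 17186, 20153 and 22284 with miR-28, and 17980.5, 17667 and 17388 with miR-708. In the RPE-1 libraries it had 11026, 10187 and 11206 in siNT, 8412, 6059.9 and 7187 with miR-28, and 6968, 5349 and 5507 with miR-708. Replicate 9 of miR-28 reached the lowest siNT library in MCF10A, and the groups with mimic lay below siNT without overlap in the other 3 comparisons. The log2 fold changes were −0.31, −0.47, −0.59 and −0.87 (SE 0.12, 0.12, 0.13 and 0.13, adjusted p = 0.0958, 0.0141, 0.00451 and 0.000237 by limma), so RPL11 fell in 3 of the 4, and in the other its value of −0.31 was not called. Its call in MCF10A with miR-708 was lost with library size scaling and without siNT replicate 8 or miR-708 replicate 9, where the adjusted p reached 0.057. Between the mimics neither gene was called: RPL5 differed by −0.35 and −0.54 (miR-708 minus miR-28 in MCF10A and RPE-1, adjusted p = 0.311 and 0.0955 by limma, the latter 0.0277 with same-numbered replicates paired), and RPL11 by −0.16 and −0.28 (adjusted p = 0.565 and 0.166).

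**Figure D3:**
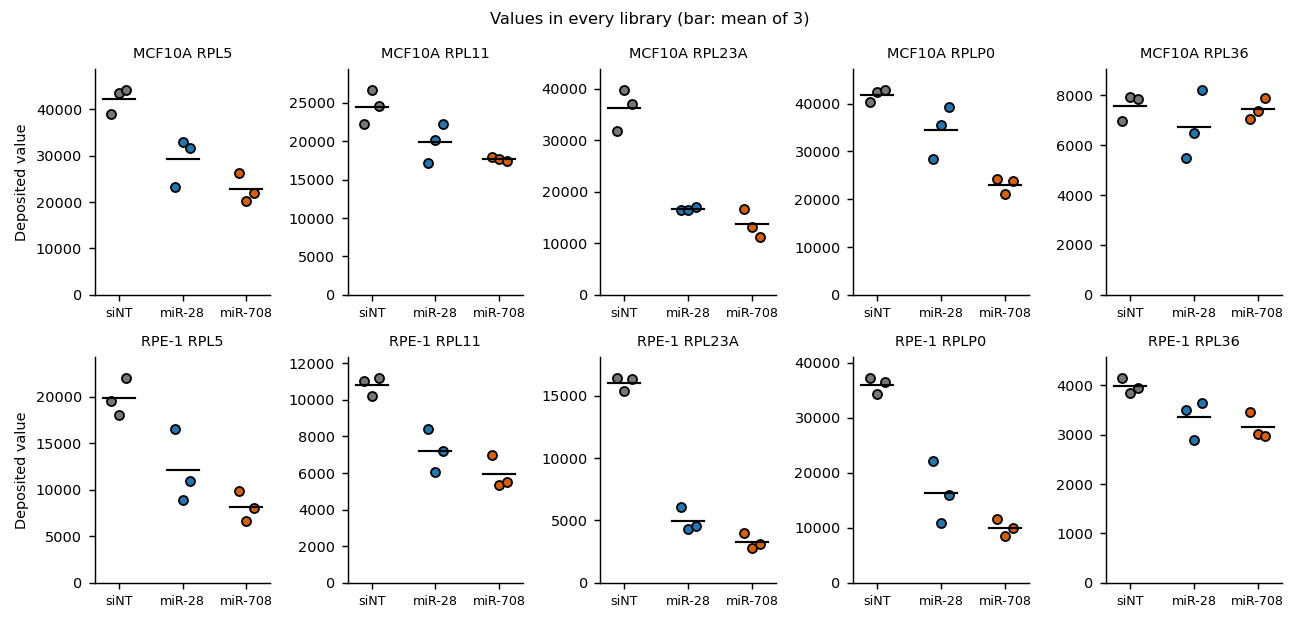
Deposited values (estimated reads scaled within each line, linear axes from 0, of a range of their own in each panel) of RPL5, RPL11, RPL23A, RPLP0 and RPL36 in every library, with a bar at each group mean (n = 3). RPL5, RPL23A and RPLP0 lie below siNT in all mimic libraries of both lines, while RPL36 with miR-708 in MCF10A lies at 7066 to 7883, inside the siNT range of 6985 to 7926.

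The stalk, which recruits the elongation factors to the subunit, consists of RPLP0, the paired RPLP1 and RPLP2, and RPL12 at its base. Of these 4, 1, 3, 4 and 4 were called lower, with median log2 fold changes of −0.25, −0.63, −0.88 and −1.41. Over all genes 12%, 17.3%, 23.5% and 31.2% were called lower, a share that also stands beside the counts by role below. No role was tested against it. RPLP0 (chr12:120196699-120201235, minus strand), often used as a reference gene in qPCR, had values of 40276, 42531 and 42897 in MCF10A siNT, 28492, 35637 and 39391 with miR-28, and 24146, 21128 and 23902 with miR-708. In RPE-1 it had 37246, 34212 and 36526 in siNT, 22194, 10896 and 15911 with miR-28, and 11651, 8413 and 9890.1 with miR-708. In MCF10A the 3 groups did not overlap, with siNT highest and miR-708 lowest. In RPE-1 both mimics lay below siNT and overlapped with each other. The log2 fold changes were −0.29, −0.86, −1.20 and −1.86 (SE 0.14, 0.14, 0.22 and 0.22, adjusted p = 0.155, 0.00103, 0.00124 and 3.45e-05 by limma). RPLP0 therefore fell in 3 comparisons, and the value of −0.29 with miR-28 in MCF10A was not called.

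RPLP1, which carries a flexible tail of the stalk, had values of 13035, 15478 and 14356 in MCF10A siNT, 10723, 12831 and 15478 with miR-28, and 9759.8, 10218 and 10305 with miR-708. Its RPE-1 values were 15599, 15357 and 14385 in siNT, 12467, 6567 and 9041 with miR-28, and 6985, 5665 and 5693 with miR-708. With miR-28 in MCF10A it overlapped with siNT, at −0.15 (SE 0.13, adjusted p = 0.445 by limma), and the other groups with mimic did not overlap with siNT. It fell by 0.50, 0.74 and 1.31 on the log2 scale in the other 3 comparisons (adjusted p = 0.0142, 0.00896 and 0.000157 by limma), the first of which was lost with library size scaling and without siNT replicate 8, where the adjusted p reached 0.0568. RPL12 fell in all 4, by 0.71, 0.77, 1.02 and 1.5 (SE 0.12, 0.12, 0.13 and 0.13, adjusted p = 0.00293, 0.000861, 0.000141 and 4.76e-06 by limma). Its values were 35413, 38997 and 39562 in MCF10A siNT, 20408, 23958 and 25726 with miR-28, and 22475, 21877 and 22347 with miR-708, and in RPE-1 15806, 14337 and 15888 in siNT, 9036, 6429 and 7467 with miR-28, and 6166, 5032 and 5129 with miR-708. In RPE-1 the 3 groups of RPL12 did not overlap, and in MCF10A the mimics overlapped. RPLP2, the partner of RPLP1, was called in RPE-1 only, at −0.55 and −0.99, with −0.20 and −0.25 in MCF10A.

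The proteins around the exit of the nascent chain tunnel are represented by 8 members (RPL17, RPL19, RPL22, RPL23A, RPL26, RPL31, RPL35 and RPL39), of which 2, 6, 8 and 8 were called lower (medians −0.38, −0.51, −0.71 and −1.02). The group held the member with the lowest fold change in all 4 comparisons, RPL23A (chr17:28719985-28724359, plus strand), a docking site for factors that meet the nascent chain. RPL23A had values of 31769, 39764 and 37025 in MCF10A siNT, 16394, 16456 and 17067 with miR-28, and 16618, 13245 and 11156 with miR-708. In the RPE-1 libraries it had 16454, 15354 and 16377 in siNT, 6086, 4309 and 4577 with miR-28, and 3958, 2824 and 3112 with miR-708. All mimic libraries lay below all siNT libraries, and in RPE-1 the mimics did not overlap with each other. The log2 fold changes were −1.11, −1.42, −1.70 and −2.30 (SE 0.15 in each, adjusted p = 0.000758, 8.32e-05, 1.2e-05 and 6.88e-07 by limma), which are folds of 2.17, 2.67, 3.25 and 4.92. RPL23A has 91 annotated pseudogenes of its name, among which estimated reads can be shared, so its level is less certain than that of a member with few copies.

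RPL35, at the same exit, was among the least changed. It had values of 9427, 11561 and 11277 in MCF10A siNT, 8020.2, 9252 and 10860.5 with miR-28, and 9364, 9317 and 9372 with miR-708, and its log2 fold changes there were −0.20 and −0.20 (SE 0.12 and 0.12, adjusted p = 0.258 and 0.249 by limma). In RPE-1 it had 5441, 4867 and 4876 in siNT, 4119.5, 3123 and 3851 with miR-28, and 3587, 2887 and 3191 with miR-708, without overlap with siNT, and it fell by 0.46 and 0.66 (SE 0.12 and 0.12, adjusted p = 0.00882 and 0.000688 by limma). RPL17 fell in all 4 comparisons, by 0.51, 0.67, 0.77 and 1.05, while the separate row for the readthrough transcript of RPL17 and its neighbour gave 0.25, 0.60, 0.49 and 0.35 (adjusted p = 0.186, 0.00493, 0.00551 and 0.0202 by limma). Since estimated reads of the shared exons can be split between the rows, they were also summed, which was chosen after the values were seen, and the sum gave −0.47, −0.60, −0.60 and −0.85. The remaining exit proteins RPL19, RPL22, RPL26, RPL31 and RPL39 lay between −0.25 and −0.42 with miR-28 in MCF10A, where none of them was called without pairing and RPL19 and RPL31 were called with it, and RPL39 at −0.28 was not called with miR-708 either. All 5 were called in RPE-1.

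A further 13 members join the earliest assembly intermediates, in which the body of the subunit folds. Of these, 8, 11, 12 and 13 were called lower, with medians of −0.46, −0.77, −0.82 and −1.20. RPL3, which lies near the peptidyl transferase centre, was lowest among them in MCF10A with both mimics. It had values of 52931, 56884 and 56586 in MCF10A siNT, 24392, 32467 and 33348 with miR-28, and 26727, 23227 and 23896 with miR-708. Its RPE-1 values were 29197, 27711 and 29128 in siNT, 17225, 10499 and 13132 with miR-28, and 12582, 9563 and 11018 with miR-708. The mimics overlapped with each other in both lines and never with siNT, and the log2 fold changes were −0.90, −1.17, −1.10 and −1.38 (SE 0.15, 0.15, 0.17 and 0.17, adjusted p = 0.00208, 0.000204, 0.0004 and 4.07e-05 by limma).

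RPL14, a protein of the solvent side, had values of 25489.8, 28074 and 28439.6 in MCF10A siNT, 15626, 19694 and 19758 with miR-28, and 16539, 13843 and 12922 with miR-708. In the RPE-1 libraries it had 10389, 9365 and 11299 in siNT, 6375, 4670.0 and 4855 with miR-28, and 4104, 3078 and 3669 with miR-708, with no overlap between any groups. It fell by 0.58, 0.93, 0.98 and 1.52 on the log2 scale (SE 0.13, 0.13, 0.14 and 0.14, adjusted p = 0.0112, 0.000534, 0.00032 and 7.79e-06 by limma). RPL4, which lines the tunnel with a long loop, fell in all 4, at −0.69, −1.12, −1.21 and −1.72.

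RPL36 was nearest to siNT among the early members. It had values of 6985, 7926 and 7859 in MCF10A siNT, 5486, 6489 and 8221 with miR-28, and 7066, 7359.7 and 7883 with miR-708. In RPE-1 it had 4153, 3838 and 3955 in siNT, 3509, 2899 and 3643 with miR-28, and 3457, 3014 and 2975 with miR-708. In MCF10A both mimics overlapped with siNT, at −0.19 and −0.03 (SE 0.13 and 0.13, adjusted p = 0.329 and 0.894 by limma). The value with miR-708 turned to 0.11 with library size scaling and to 0.02 with upper quartile scaling. In RPE-1 all mimic libraries lay below siNT, at −0.26 and −0.34 (SE 0.10 and 0.10, adjusted p = 0.0613 and 0.0137 by limma). The latter was the only call of RPL36 and was lost with library size scaling, where the value was −0.02, and without siNT replicate 1 or miR-708 replicate 3.

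The other 17 members were called lower in 8, 15, 17 and 17 cases, with medians of −0.36, −0.55, −0.74 and −1.18. RPL37A, a small zinc-binding protein, had values of 22691, 28329 and 26819.9 in MCF10A siNT, 16508, 20926 and 24065 with miR-28, and 17169, 17142 and 17072 with miR-708. Its RPE-1 values were 16105, 15158 and 15015 in siNT, 9106, 5208 and 6740.3 with miR-28, and 5903, 4446 and 4722 with miR-708. With miR-28 in MCF10A it overlapped with siNT (−0.35, SE 0.15, adjusted p = 0.104 by limma), and in the other comparisons, where it lay below siNT without overlap, it fell by 0.59, 1.17 and 1.63 (adjusted p = 0.00972, 0.000428 and 2.25e-05 by limma). RPL27A, which lies in the body of the subunit, fell in all 4, by 0.63, 0.91, 1.33 and 1.67 (SE 0.11, 0.11, 0.14 and 0.14, adjusted p = 0.00312, 0.000198, 4.72e-05 and 4.56e-06 by limma).

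The values of RPL27A were 26929, 30575 and 29826 in MCF10A siNT, 17995, 18165 and 20108 with miR-28, and 16799.9, 15108 and 14689 with miR-708, with no overlap between any groups. In RPE-1 they were 18482, 17333 and 18117 in siNT, 8819, 5766 and 7153 with miR-28, and 6423, 5399 and 5184 with miR-708, where the mimics overlapped with each other. RPL8, a neighbour of the peptidyl transferase centre, and RPL24, which forms a bridge to the small subunit and joins late, were at the upper end of the members in single comparisons.

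RPL8 had values of 41279, 43262 and 40044 in MCF10A siNT, 35457, 33645 and 40781 with miR-28, and 32869, 30133 and 29098 with miR-708. In the RPE-1 libraries it had 15586, 15026 and 14429.7 in siNT, 11158, 7793 and 10763 with miR-28, and 8681, 7482 and 8195 with miR-708. Replicate 9 of miR-28 reached the siNT range in MCF10A, and the other mimic groups lay below siNT. Its log2 fold changes were −0.19, −0.44, −0.62 and −0.89 (SE 0.13 in each, adjusted p = 0.314, 0.0214, 0.00323 and 0.00018 by limma), and the call with miR-708 in MCF10A was lost with library size scaling and without siNT replicate 7 or 8 or miR-708 replicate 8 or 9, where the adjusted p reached 0.0838.

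RPL24 had values of 14724, 17143 and 15821 in MCF10A siNT, 11159, 12309.7 and 13682 with miR-28, and 11844, 10853 and 11166 with miR-708. In RPE-1 it had 8278, 7747 and 7801 in siNT, 6852, 4968 and 5644 with miR-28, and 5405, 4259 and 4494 with miR-708. All mimic libraries lay below siNT in both lines. It fell by 0.36, 0.49, 0.46 and 0.76 (SE 0.11, 0.11, 0.13 and 0.13, adjusted p = 0.0345, 0.00564, 0.0122 and 0.000401 by limma), the first lost with library size or upper quartile scaling and without siNT replicate 8 or 9 or miR-28 replicate 7 or 8, where the adjusted p reached 0.118. The members not called with miR-708 in MCF10A were RPL13 (−0.40, adjusted p = 0.0578 by limma, and called with pairing), RPL35, RPL36, RPL38 (−0.29), RPL39 (−0.28), RPL41 (−0.31) and RPLP2 (−0.25).

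The members thus differed among themselves by more than their replicates did. After the median of the 44 was taken from each library, the mean departures of the members had an SD of 0.206, 0.271, 0.280 and 0.359 on the log2 scale, against a median SD between replicates of 0.0675, 0.0560, 0.0817 and 0.0616. RPL23A lay 0.73, 0.83, 0.91 and 1.14 below the median and RPL36 lay 0.20, 0.55, 0.54 and 0.81 above it. These departures are descriptions, and the same siNT libraries enter both mimics of a line.

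The mimics were then compared directly within each line. In MCF10A the median member was at −0.17 (miR-708 minus miR-28) and 42 of 44 lay below 0, but limma called 0 of the 44, against 0.265% of all genes called lower, and 10 had an unadjusted p below 0.05 (7.95% of all genes). Without miR-28 replicate 9 the median was −0.079 with 33 below 0, and without its replicate 7 it was −0.27. In RPE-1 all 44 lay below 0 with a median of −0.37. That median was −0.20 without miR-28 replicate 1 and −0.51 without its replicate 2. There 27 members had an unadjusted p below 0.05 (18.6% of all genes). Only 5 were called lower, which is 11.4% of the members and no more than the 11.4% of all genes. These 5 were RPL23A (−0.60, adjusted p = 0.0177 by limma), RPL14 (−0.55, adjusted p = 0.0209), RPL12 (−0.48, adjusted p = 0.0243), RPL28 (−0.31, adjusted p = 0.0385) and RPL10 (−0.47, adjusted p = 0.0417). All 3 miR-708 libraries lay below all 3 of miR-28 for 9 members in MCF10A, against 9.62% of all genes. In RPE-1 this held for 4 members, a smaller share than the 20.2% of all genes.

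Of all counts here, the 5 between the mimics in RPE-1 moved most. It became 24 when replicates of the same number were paired, 37 without miR-28 replicate 2, 1 without its replicate 1, 2 without its replicate 3, 3 without siNT replicate 1 or 2, and 0 without miR-708 replicate 2 or 3 or with library size scaling. Calls over all tested genes, higher or lower, were 3084 of 14527 in the main fit (46.5% higher). They were 3315 of 14527 (44.9% higher) with pairing and 4084 of 14469 (48.3% higher) without miR-28 replicate 2. Without its replicate 1 they were 2088 of 14481 (45.3% higher), and with library size scaling 4654 of 14522 (84.8% higher). Without miR-708 replicate 2 or 3 they were 2358 of 14451 (45.5% higher) and 1512 of 14457 (41.1% higher). RPLP0 differed by −0.57 in MCF10A (adjusted p = 0.0835 by limma, 0.032 with pairing, where it was the 1 member called) and by −0.66 in RPE-1 (adjusted p = 0.0519, or 0.0136 with pairing). RPL24, RPL37A and RPLP1 were also among the 24 with pairing, at an adjusted p of 0.04, 0.028 and 0.0237.

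Next, the lines were compared by subtracting the log2 fold change of MCF10A from that of RPE-1. All 44 members were further below siNT in RPE-1 for each mimic, by a median of 0.35 with miR-28 and 0.56 with miR-708. With miR-28 6 members differed (adjusted p below 0.05 over 13339 genes by a test on the limma estimates with degrees of freedom from both lines, 11.3% of all genes lower in RPE-1), with 13 at an unadjusted p below 0.05 (18% of all genes). They were RPLP0 at −0.91 (adjusted p = 0.0169), RPL37A at −0.82 (adjusted p = 0.0135), RPL27A at −0.70 (adjusted p = 0.00892), RPL23 at −0.68 (adjusted p = 0.0472), RPL28 at −0.64 (adjusted p = 0.00227) and RPL23A at −0.59 (adjusted p = 0.0456). The count was 11 with pairing or without MCF10A miR-28 replicate 7, and 21 without RPE-1 miR-28 replicate 1.

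With miR-708 26 members differed (19.6% of all genes lower in RPE-1), over a range of −1.04 to −0.21 for the 44. The differences were largest for RPL37A (−1.04, adjusted p = 0.00126), RPLP0 (−1.0, adjusted p = 0.00495) and RPL23A (−0.88, adjusted p = 0.00207), and all 4 stalk proteins were among the 26. The 5S particle was not: RPL5 differed by −0.40 (95% confidence interval −0.95 to 0.15, adjusted p = 0.238) and RPL11 by −0.40 (−0.78 to −0.02, adjusted p = 0.0836, or 0.0355 with pairing). RPL3 had the smallest difference, −0.21 (−0.67 to 0.25). At an unadjusted p below 0.05 there were 34 (23.5% of all genes). The count of 26 became 14 with library size scaling and 16 without MCF10A siNT replicate 7 or RPE-1 miR-708 replicate 2 or 3. The difference between the mimics themselves differed between the lines for 0 of the 44 by the same test, against 2.99% of all genes, with 1 at an unadjusted p below 0.05 (10.3% of all genes).

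**Figure D4:**
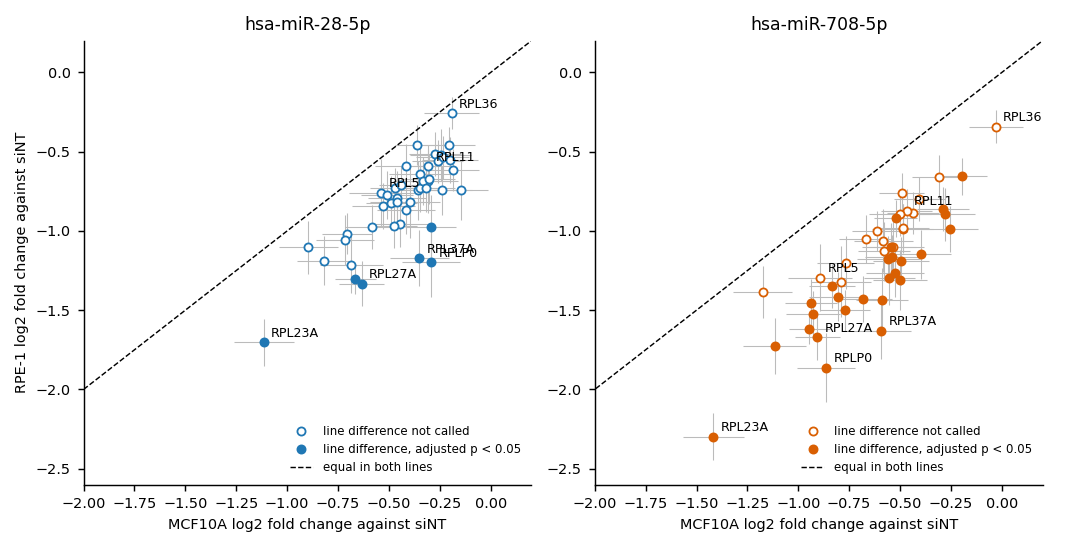
Log2 fold change against siNT of the 44 members in RPE-1 (vertical axis) against MCF10A (horizontal axis), by mimic, with bars of 1 SE, a diagonal of equal change and filled points where the lines differed at an adjusted p below 0.05. All 44 points lie below the diagonal for each mimic, and 6 of them are filled for miR-28 and 26 for miR-708.

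The order of the members was alike in the lines, which share no library. Over the 44 genes, Pearson's r between the fold changes of the lines was 0.79 for miR-28 and 0.86 for miR-708 (Spearman's rho 0.73 and 0.86), as descriptions across genes, which are not independent replicates and which share transcript length and sequence between the lines.

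The members were also set against features of their transcripts. The 27 members with a TOP start had median log2 fold changes of −0.36, −0.54, −0.74 and −1.17. The 10 with an entry and no such start had −0.44, −0.63, −0.73 and −1.08, so neither set had the lower median in all 4. The C was looked for at the annotated start only. RPL3, RPL19 and RPL10A, counted among the 10, have pyrimidine runs across or just after that base. RPL4, RPL9 and RPL17, also among them, have such runs elsewhere in the window. The split therefore cannot tell members with a TOP tract from members without one. The 13 members with the 6mer, shared by both mimics, in the coding sequence or 3′ UTR were at −0.47, −0.83, −1.06 and −1.52. The 31 members with neither were at −0.36, −0.53, −0.73 and −1.10. Members with and without the 6mer were thus both lower than siNT, with the lower medians in the former, a difference that was not tested. The 9 members with the 6mer in the 3′ UTR had 3′ UTRs of 462 to 6355 bases, against the median of 240.5 for all members. The longest, of 7242 bases in RPL37, held none. Spearman's rho between 3′ UTR length and fold change over the 44 genes was −0.09, −0.17, −0.38 and −0.42. The part of this length in the 6mer medians was not tested. Single members with a match printed above went either way. RPL11 was nearer to 0 than the median member in each comparison, and RPL23A was the lowest member in each.

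An intron of 18 members hosts snoRNAs, the guides of rRNA modification, and these were at −0.45, −0.68, −0.78 and −1.25, against −0.35, −0.54, −0.73 and −1.10 for the other 26. Members with a longer coding sequence tended to lie lower, with a Spearman's rho over the 44 genes of −0.43, −0.61, −0.39 and −0.38, given as a description. The members had 1 to 133 pseudogenes (median 15) in the annotation, with a rho to the fold change of −0.31, −0.21, −0.14 and −0.10.

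Members of related lists were counted in the same fits, where 12%, 17.3%, 23.5% and 31.2% of all genes were called lower. The 32 proteins of the small (40S) subunit were called lower in 8, 24, 31 and 32 cases and higher in none (medians −0.33, −0.57, −0.82 and −1.14). Within them RPS28, which the study follows, was at −2.79, −2.65, −4.47 and −4.40, further from siNT than any 60S member, RPS25 was at −1.26, −1.12, −2.18 and −2.19, and RPS19 was called only with miR-708 in RPE-1 (0.20, 0.18, −0.04 and −0.42). The balance of the subunits was taken in each library as the median 60S gene minus the median 40S gene on the log2(value + 1) scale, and it differed from siNT by −0.087, −0.040, −0.050 and −0.091 (exact permutation p = 0.2, 0.3, 0.2 and 0.1, adjusted p = 0.267, 0.3, 0.267 and 0.267), where 0.1 is the smallest p that the design allows. With RPS28 left out of the 40S median the differences were −0.139, −0.153, −0.091 and −0.153.

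Of 19 other transcripts with a TOP tract, mostly translation factors, 11, 17, 19 and 19 were called lower (medians −0.50, −0.81, −0.66 and −0.99). Among them EIF4B, a cofactor of the initiation helicase, fell by 0.88, 1.24, 1.07 and 1.51, and PABPC1, the poly(A) binding protein, was at −0.50 (adjusted p = 0.0896 by limma), −0.88, −1.10 and −1.89. Of 48 factors that assemble the 60S subunit, 10, 13, 6 and 8 were called lower and 0, 0, 16 and 23 higher (medians −0.15, −0.14, 0.13 and 0.27), where 12%, 17.3%, 23.5% and 31.2% of all genes were called lower and 10.7%, 15.5%, 23.3% and 30.9% higher. With library size scaling their MCF10A medians were −0.04 and 0.00, so no direction is given for that line. RSL24D1, which holds the place of RPL24 in the precursor, fell by 1.83, 2.02, 1.42 and 1.73, and PAK1IP1, an assembly factor, was called higher in RPE-1 only, at 0.82 and 1.09.

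**Figure D5:**
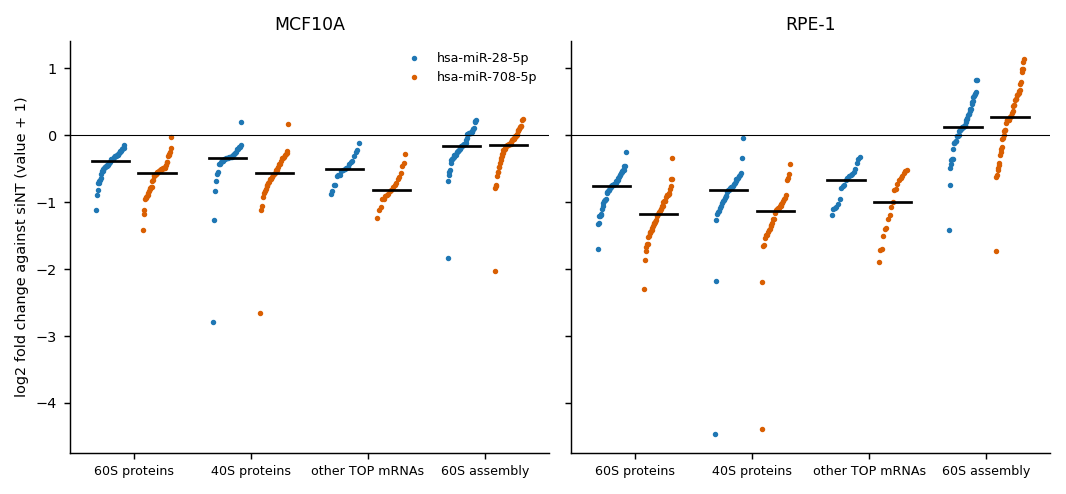
Log2 fold change against siNT of each gene of the 60S proteins and of the related lists in the 4 comparisons, with a point for each gene, sorted within its list, and a bar at the median of each list. The 60S medians of −0.38, −0.56, −0.75 and −1.17 lie beside 40S medians of −0.33, −0.57, −0.82 and −1.14.

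Of 10 further large subunit genes and paralogs, 8 were tested, and 2, 3, 4 and 6 of them were called lower and 0, 0, 0 and 1 higher. RPL22L1, a paralog of RPL22, fell by 1.48, 1.0, 1.13 and 0.77, whereas RPL39L, a paralog of RPL39, was called once, higher with miR-708 in RPE-1 (0.73, adjusted p = 0.00193 by limma).

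MDM2, which the 5S particle can bind, rose by 1.24, 0.94, 1.48 and 1.40. CDKN1A, the cell cycle inhibitor p21, was at 0.22, −0.09, −0.16 and −0.93 and was called only in the last, as lower. With library size scaling, however, the first value was 0.33 and called, and the second turned to 0.06. MYC, which drives transcription of ribosomal protein genes, fell by 0.74 and 0.95 in MCF10A and was at −0.06 and −0.10 in RPE-1, which turned to 0.02 and 0.22 with library size scaling. Of the interferon-stimulated genes, 5 and 13 of 13 in MCF10A and 12 and 12 of 12 in RPE-1 (OASL was not listed there) were called higher, and 1, 0, 0 and 0 lower, with medians of 0.49, 6.35, 5.49 and 6.93. Over all genes 10.7%, 15.5%, 23.3% and 30.9% were called higher. The antiviral GTPase MX1 rose by 1.88, 8.86, 6.93 and 8.44.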

How the data were processed

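RNA was polyadenylated RNA of cell lines with a RIN of at least 9.6 per the study's methods, sequenced as paired reads. The authors trimmed adapters, aligned to hg38 with HISAT2 2.1.0 (submitters' processing notes) and estimated transcript counts (RefSeq) with the Partek Flow E/M method. The deposited signal is this estimated count over a size factor (median of ratios, set within each table). Between 83.9% and 90.2% of low values lay within 0.05 of a whole read, so whole reads were not recovered. The authors' own comparisons were deposited as fold changes with p-values from DESeq2 and were not used. Columns of libraries left unused numbered 0.

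The values were tested as log2(value + 1) with limma 3.58.1 in R 4.3.3 (trend), per line, over genes that reached 10 in 3 or more of 9 libraries (14726 and 14527 genes). The pseudocount understates changes of low genes. The scripts were tested on simulated data. Python 3.11.15, pandas 2.3.3, numpy 2.4.6, scipy 1.17.1 and matplotlib 3.10.9 served the rest. Intervals cover the spread between replicates, whose cultures are stated to be biological replicates. Gene positions and transcripts came from GENCODE on GRCh38, promoters and the microRNA from RefSeq.

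The members and lists were chosen with earlier results of these data known. Genes given in full were RPL5, RPL11, the 2 members with the lowest and the 2 with the highest fold change per comparison, the 3 largest called between mimics and the 3 with the largest line difference per mimic. In other lists at most 3 genes with extreme mean fold changes were named, with RPS28, MYC, MDM2 and CDKN1A. A further gene, the list that holds it and 1 seed match are not reported here. RPL4, RPL10, RPL13, RPL17, RPL22, RPL23, RPL28, RPL38, RPL39, RPL41 and RPLP2 were named after their values were seen.

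The deviations of same-numbered replicates had correlations of 0.111 to 0.302 in MCF10A for both mimics against siNT. In RPE-1 they were 0.134 to 0.278 between the mimics and 0.021 to 0.151 against siNT. Between the mimics in MCF10A they were 0.025 to 0.177. These ranges overlap, no threshold was set, and whether replicates are paired was not tested.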

Additional observations from a re-analysis of the deposited data

Results flagged for a closer look

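The fold changes of the lines differed for these members by the test of the difference itself, all being further below siNT in RPE-1. Of the 44 members 13.6% were called lower with miR-28, near the 11.3% of all genes, and 59.1% with miR-708, against 19.6% of all genes. With miR-28 the differences on the log2 scale (RPE-1 minus MCF10A) were −0.59 for RPL23A, −0.70 for RPL27A, −0.82 for RPL37A and −0.91 for RPLP0. With miR-708 they were −0.73 for RPL12, −0.60 for RPL14, −0.88 for RPL23A, −0.76 for RPL27A, −0.46 for RPL35, −1.04 for RPL37A, −1.0 for RPLP0 and −0.81 for RPLP1. The call for RPL23A with miR-28 was lost under 12 of 26 alternatives (adjusted p up to 0.117), that for RPL35 under 7 (up to 0.189) and that for RPL14 under 2 (up to 0.0726), and the other 9 were kept under all 26. Groups of 3 libraries were not tested for outlying samples.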

How the results depend on the processing

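Alternatives were other pseudocounts, no filter on low values, library size, upper quartile or non-ribosomal scaling, the replicate block, left-out libraries and, chosen after seeing the data, RPL17 summed with its readthrough row and shares without interferon-stimulated genes. Of 2156 values of single genes under an alternative 2055 kept direction and call, 31 gained a call, 58 lost one and 12 changed sign, and of 320 summary values 293 held. The cause of each change was not tested.

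Library size scaling put the median of all genes at 0.12, 0.14, 0.09 and 0.32. Members are therefore best read relative to that median (−0.38, −0.55, −0.76 and −1.17 from all genes, as with the deposited scaling). This scaling gave 13, 26, 43 and 43 members called lower, and medians of −0.41 and −0.85 with miR-708 in MCF10A and RPE-1. It gave 0 members and a median of −0.14 between the mimics in RPE-1, and 14 members for the line difference with miR-708. The share of all called genes that were higher moved from 47.1%, 47.3%, 49.9% and 49.7% to 66.2%, 67.6%, 59.4% and 71.9%, and with upper quartile scaling to 58.5% for miR-28 in MCF10A, where 15 members were called.

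With the replicate number as a block, the members called were 22, 38, 44 and 44, with 1 in MCF10A and 24 in RPE-1 between the mimics and 11 for the line difference with miR-28. No other count moved by more than 1.5 times. No call of the mimics against siNT was lost, and RPL19, RPL31 and RPL13 in MCF10A and RPL36 in RPE-1 were gained. In the line difference, among members described in full, RPLP1 with miR-28 and RPL8 and RPL11 with miR-708 were gained. Correlations between same-numbered replicates reached only 0.151 in RPE-1 against siNT and 0.177 between the mimics in MCF10A. The gain of RPL36, the line differences and the 1 call between the mimics in MCF10A rest on those comparisons. Pairing is not taken as shown there, and it was not tested in any comparison.

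Leaving out single libraries gave 9 to 23, 26 to 39, 41 to 43 and 43 to 44 members called, 0 to 1 and 0 to 37 between the mimics in MCF10A and RPE-1, and 4 to 21 and 16 to 32 for the line difference with miR-28 and miR-708. In MCF10A with miR-28 the count was 9, 10 and 13 without siNT replicate 8, siNT replicate 9 and miR-28 replicate 8, and between the mimics it was 1 without miR-28 replicate 7. The line difference with miR-28 had 11 without that library and 21 without RPE-1 miR-28 replicate 1, and with miR-708 16 without MCF10A siNT replicate 7 or RPE-1 miR-708 replicate 2 or 3. Medians between the mimics ran from −0.27 to −0.079 in MCF10A and from −0.51 to −0.20 in RPE-1. The 60S minus 40S median differed by −0.139, −0.153, −0.091 and −0.153 without RPS28, and by −0.135 to −0.051, −0.066 to −0.020, −0.070 to −0.019 and −0.111 to −0.060 without single libraries.

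The sign changed for RPL36 with miR-708 in MCF10A (0.115 with library size and 0.017 with upper quartile scaling, −0.087 to 0.0074 without single libraries, above 0 without siNT replicate 8 or miR-708 replicate 7). Between the mimics it changed in RPE-1 for RPL35 (0.038) and RPL36 (0.148) with library size scaling, and in MCF10A for RPL35 (−0.017 with upper quartile scaling, −0.100 to 0.118 without single libraries) and RPL12 (−0.159 to 0.0078, above 0 without miR-28 replicate 9). In the line difference with miR-28 it changed for RPL36 (−0.202 to 0.089, above 0 without MCF10A miR-28 replicate 9 or RPE-1 miR-28 replicate 2) and RPL24 (−0.222 to 0.010, above 0 without the latter). None of these 12 values had been called. Depth did not limit the members, while 3 replicates a group limit every permutation test to p = 0.1.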
